A study of Danio rerio with 12 samples.

Results

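Genes of motile cilia and of intraflagellar transport (IFT) were followed across microdissected pieces of zebrafish embryos in which *dmrt2a* had been overexpressed, and of their controls. They were chosen by a rule on gene symbols, drawn up with earlier results of these data known: RFX transcription factors, dynein arm genes (dnah, dnai, dnal), dynein assembly factors (dnaaf), tektins, radial spoke genes (rsph), numbered IFT and Bardet-Biedl (BBS) genes, cilia and flagella associated genes (cfap), *spag6*, *ccdc39*, *ccdc40* and *ccdc103*. This gave 107 of 20667 named genes on the array, or 152 of 75212 probe sets. Each gene was represented by its probe set with the highest mean over the 12 arrays. The genes comprised 34 cfap genes, 14 IFT genes, 10 dynein intermediate and light chains, 10 dynein assembly factors (with *ccdc103* under its present symbol *dnaaf19*), 9 dynein heavy chains, 8 RFX factors, 8 BBS genes, 7 radial spoke and central pair genes, 5 tektins, *ccdc39* and *ccdc40*.

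There were 4 groups of 3 arrays. Region 2 holds the tailbud, the presomitic mesoderm and Kupffer's vesicle, which is the left-right organiser (LRO) in this fish. Region 1 holds the somites with the tissues lateral and ventral to them. Each region was taken from Tg(hsp70:HA-*dmrt2a*) embryos, called transgenic here, and from wildtype embryos, called controls. The transgene is an HA-tagged *dmrt2a* under the hsp70 heat-shock promoter, which is active throughout the embryo, in a line selected for 1 copy of the transgene and kept on a Tubingen background; the transgenic embryos came from an outcross of homozygous fish. All embryos, the controls included, received 30 min at 39 °C at bud-stage, returned to 28 °C and were dissected 2 h to 2 h 30 min later, at 3 to 4 somites. An array stands for 100 pooled pieces, and the methods call the replicates biological.

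A cilium is built on a microtubule axoneme by IFT, in which trains of IFT proteins carry cargo to the tip and back, and the BBS proteins form a coat complex that moves membrane proteins along with these trains. In a motile cilium, outer and inner dynein arms slide the doublet microtubules, radial spokes and the central pair of microtubules regulate the arms, and tektins and several cfap proteins lie inside the doublets. Dynein arms are put together in the cytoplasm by the assembly factors before they enter the cilium. Transcription factors of the RFX and Foxj1 families switch on many of these genes, and the motile cilia of the LRO drive the leftward flow that precedes left-right asymmetry.

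The values are log2 signals as deposited. Array medians were 3.29 to 3.32 for Region 2 and 3.47 to 3.49 for Region 1. The median over the cilia genes was 3.92 to 4.11 on arrays of Region 2 and 4.08 to 4.19 on arrays of Region 1. Many of the cilia genes were dim: 54 of 107 had a mean signal under 4, among them all 7 radial spoke and central pair genes and all 5 tektins, and detection above background was not assessed. Between arrays of a group they had a median SD of 0.116 (Region 2) and 0.109 (Region 1). The dissection was visible in tissue markers: in control pieces, all 9 measured tailbud and presomitic markers were higher in Region 2 and all 8 somite markers lower, and of 11 genes of the LRO list 4 were higher and 2 lower, with a median log2 difference of 0.11. The 4 were *tbx16*, also a tailbud marker, *dand5*, expressed around the LRO (1.98), *sox32* (0.48) and *tbxta* (0.42), and the 2 were *sox17* and *foxj1a* (-0.38 each), which were not called with every array centred on its median. In pieces of mixed tissue, fewer cells of a type and less RNA per cell cannot be told apart.

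*foxj1b*, 1 of the 2 *foxj1* genes of zebrafish and a regulator of motile cilia outside the set, fell in both regions of transgenic embryos. Its log2 signal in Region 2 was 3.81, 3.86 and 3.96 in transgenic pieces, against 5.31, 5.37 and 5.53 in control pieces. In Region 1 it was 4.55, 4.36 and 4.63 in transgenic pieces, against 5.93, 5.95 and 5.87 in control pieces. The groups did not overlap in either region, and the log2 difference was -1.52 in Region 2 (limma adjusted p = 0.0037) and -1.41 in Region 1 (adjusted p = 0.0047). With 1 array left out, the highest limma adjusted p of *foxj1b* was 0.0425 in Region 2 and 0.0489 in Region 1. With the replicate number as a block *foxj1b* did not pass in either region, as the closing section gives. The block also takes degrees of freedom from the 6 arrays of a region, and the part of this in the loss was not tested. *foxj1a*, its paralog, had differences of the opposite sign that did not pass. It measured 6.50, 6.26 and 6.14 in transgenic and 5.77, 5.88 and 6.0 in control pieces of Region 2, a difference of 0.41 (adjusted p = 0.262). In Region 1 it measured 7.02, 6.82 and 6.80 in transgenic and 6.15, 6.37 and 6.26 in control pieces, a difference of 0.62 (adjusted p = 0.064). All transgenic arrays lay above all control arrays for *foxj1a* in both regions. *dmrt2a*, whose signal does not tell the transgene from the endogenous gene, was higher in transgenic pieces by 1.40 in Region 2 (adjusted p = 0.0035), with a difference of 0.35 in Region 1 that did not pass (adjusted p = 0.0991).

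While *foxj1b* fell, no cilia gene of the set passed in either region. With limma at an adjusted p under 0.05, 0 of 107 genes were higher and 0 lower in Region 2, where 0.0678% of all probe sets were called higher and 0.4% lower. In Region 1 the counts were likewise 0 and 0, with 0.162% of all probe sets called higher and 0.344% lower. The one-way analysis of variance of the methods, adjusted the same way, also called 0 in each region. Some other settings called *rfx7a* lower or *rfx6* higher in Region 1, as the closing section gives. Before adjustment, at p under 0.05, Region 2 had 7 genes higher and 6 lower, and Region 1 had 13 higher and 3 lower; the shares of all probe sets were 4.56% and 6.2% in Region 2 and 6.28% and 6.23% in Region 1.

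The intervals bound the change in array signal that could have been missed, not the change in RNA. Detection of the 54 of 107 genes with a mean signal under 4 was not assessed. The 95% confidence interval of the log2 difference lay within a fold of 2 in either direction for all 107 genes in both regions, and within a fold of 1.5 for 101 genes in Region 2 and 95 in Region 1. The highest upper bound was 0.75 in Region 2 and 0.96 in Region 1, and the lowest lower bound -0.70 in Region 2 and -0.66 in Region 1. These are intervals of single genes, not adjusted for their number.

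**Figure D1:**
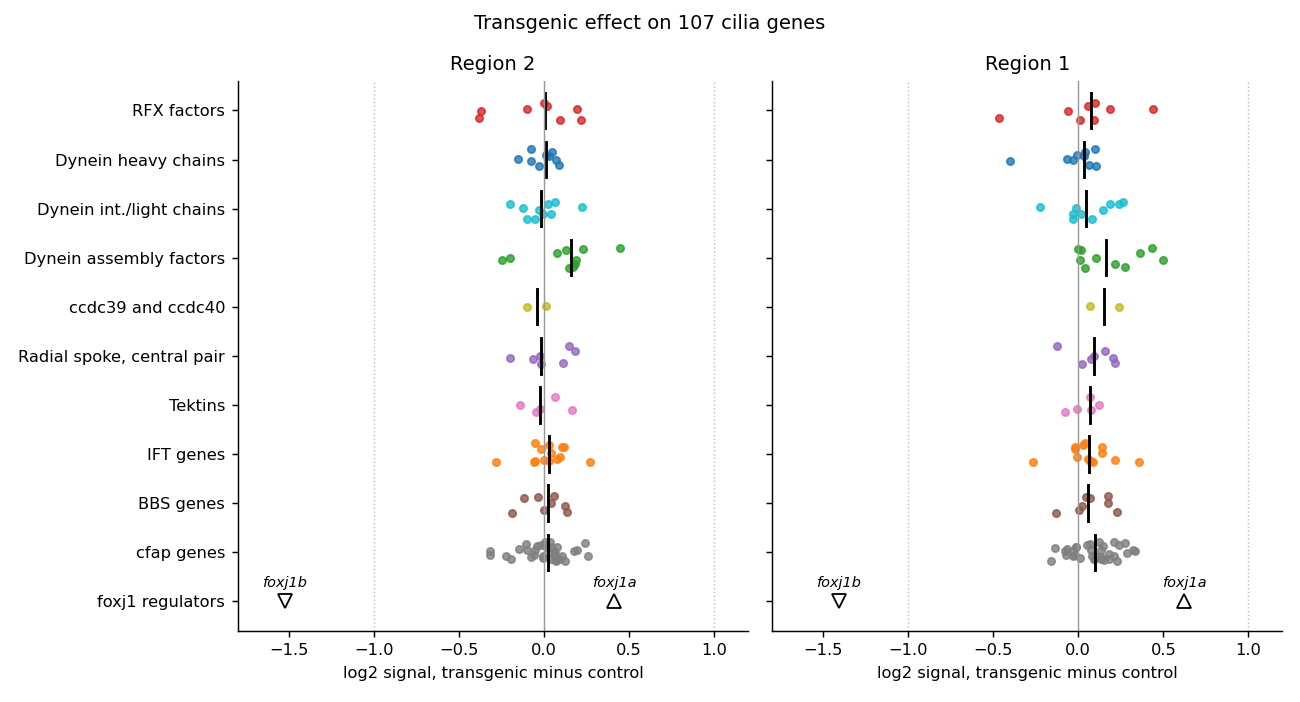
Difference in log2 signal, transgenic minus control, of each of the 107 cilia genes (points) by gene family, in Region 2 (left) and Region 1 (right), with the family median as a vertical bar. Triangles mark *foxj1b* and *foxj1a*, which are not in the set, and dotted lines mark a fold of 2: no member reaches them, while *foxj1b* lies at -1.52 in Region 2 and -1.41 in Region 1.

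The differences were small and spread around 0 in Region 2, and lay slightly above 0 in Region 1. In Region 2 the median log2 difference of the 107 genes was 0.02 (range -0.38 to 0.45), against -0.01 over all probe sets, and 61 genes (57.0%) were positive, against 48.3% of all probe sets and 49.7% of named genes. In Region 1 the median was 0.08 (range -0.47 to 0.50), against -0.01 over all probe sets and 0.01 over named genes. There 78 genes (72.9%) were positive, against 48.5% of all probe sets and 53.8% of named genes. The transgenic and control arrays did not overlap for 9 higher and 9 lower genes in Region 2 (8.41% each), close to the 7.91% and 9.3% of all probe sets. In Region 1 they did not overlap for 21 higher (19.6%) and 3 lower (2.80%) genes, against 9.72% and 9.56% of all probe sets. Shares without overlap were not taken over named genes alone. Tailbud markers, which marked Region 2 in the controls, differed in both directions in transgenic pieces of Region 1: 7 of 9 had positive differences, of which 3 passed (*msgn1*, *tbx16* and *her7*, by 0.53, 0.95 and 0.58), and 2 had negative ones that did not pass, with no overlap between arrays (*wnt3a*, -0.56, adjusted p = 0.0608, and *fgf8a*, -0.28, adjusted p = 0.303). The median difference of the 9 was 0.29, and their median signal was 6.30 in transgenic and 6.13 in control pieces. Their part in the shift of the cilia genes was not tested.

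By family, the median difference ranged from -0.04 for *ccdc39* and *ccdc40* to 0.16 for the dynein assembly factors in Region 2, and from 0.03 for the dynein heavy chains to 0.16 for the dynein assembly factors in Region 1. The differences of the dynein assembly factors were positive for 8 of 10 in Region 2 and 9 of 10 in Region 1, on the probe sets used. The second probe set of *dnaaf6* differed by -0.34 in Region 2 and -0.19 in Region 1, against 0.17 and 0.27 for the one used. Those of *dnaaf19* kept its signs. On the probe sets used, the single widest difference of the set was *dnaaf3l* in Region 1, at 0.50 (adjusted p = 0.37). Its arrays scattered, with 4.24, 4.34 and 3.71 in transgenic and 3.34, 3.71 and 3.76 in control pieces. The other, dimmer probe sets of *dnaaf3l* differed by 0.08, -0.31 and 0.15 in Region 1. The second probe set of *cfap74* differed by 0.65 in Region 2 (adjusted p = 0.208), against -0.07 for the one used. For the dynein heavy chains, the motor subunits of the arms, the median was 0.01 in Region 2 and 0.03 in Region 1, and the 14 IFT genes had medians of 0.03 and 0.06 in Region 2 and Region 1. *ift57*, the brightest IFT gene and a subunit of the IFT-B complex, measured 7.49, 7.48 and 7.51 in transgenic and 7.55, 7.49 and 7.49 in control pieces of Region 2, a difference of -0.02 with a standard error of 0.06.

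No gene with a dnah, dnai, dnal, rsph or tekt symbol had all arrays set apart in both regions. *cfap251*, a radial spoke protein by its place in Tetrahymena but counted here among the cfap genes, was set apart in both. *dnah5*, a heavy chain of the outer arm and the brightest of its family, measured 4.85, 4.88 and 4.36 in transgenic and 4.61, 4.77 and 4.64 in control pieces of Region 2, a difference of 0.03 with a 95% interval of -0.33 to 0.39. On the probe sets used, *dnah1*, of an inner arm, was the one heavy chain whose transgenic arrays all lay below the control arrays in Region 1. It measured 3.21, 2.94 and 3.17 in transgenic and 3.34, 3.59 and 3.59 in control pieces, a difference of -0.40 (adjusted p = 0.22). *dnah2* and *dnah6* had all transgenic arrays above the control arrays there, with differences of 0.06 and 0.11. The other probe sets of *dnah9* differed by -0.30, -0.40 and 0.09 in Region 1, against -0.06 for the one used. *spag6* overlapped in both regions and differed by -0.02 in Region 2 and 0.09 in Region 1. *dnaaf5*, the brightest assembly factor, measured 5.96, 5.95 and 5.93 in transgenic and 6.28, 6.2 and 6.10 in control pieces of Region 2, a difference of -0.25 (adjusted p = 0.3), and differed by 0.01 in Region 1. It was thus 1 of the 2 assembly factors with a negative difference in Region 2.

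Of the 8 BBS genes, *bbs9*, a subunit of the BBS complex, was set apart in both regions, with 4.80, 4.89 and 4.75 in transgenic and 4.62, 4.71 and 4.71 in control pieces of Region 2. In Region 1 it measured 4.87, 4.9 and 4.79 in transgenic and 4.58, 4.73 and 4.56 in control pieces; the differences were 0.14 in Region 2 and 0.23 in Region 1 (adjusted p = 0.579 and 0.3). Among the 34 cfap genes, *cfap77* and *cfap100* had the smallest p-values in Region 2, with opposite signs. *cfap77*, a protein inside the doublets, measured 3.16, 3.09 and 3.06 in transgenic and 2.90, 2.87 and 2.77 in control pieces, a difference of 0.26 (adjusted p = 0.26). *cfap100*, which in Chlamydomonas acts on an inner dynein arm, measured 2.48, 2.62 and 2.53 in transgenic and 2.69, 2.92 and 2.98 in control pieces, a difference of -0.32 (adjusted p = 0.299). Both were dim, and in Region 1 both overlapped between the groups. *cfap298*, the brightest cfap gene, differed by 0.00 in Region 2 and 0.05 in Region 1.

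Among the RFX factors, *rfx7a* came nearest to the threshold in Region 1. It measured 6.81, 6.76 and 6.64 in transgenic and 7.15, 7.23 and 7.24 in control pieces of Region 1, a difference of -0.47 (adjusted p = 0.0688), and the groups did not overlap. In Region 2 it measured 5.98, 5.91 and 6.34 in transgenic and 6.38, 6.57 and 6.43 in control pieces, a difference of -0.38 (adjusted p = 0.35), with the highest transgenic array just below the lowest control array. Its paralog *rfx7b* had positive differences, 0.20 in Region 2 and 0.19 in Region 1 (adjusted p = 0.354 and 0.328). *rfx1a* measured 5.64, 5.28 and 5.42 in transgenic and 5.84, 5.80 and 5.80 in control pieces of Region 2, a difference of -0.37 (adjusted p = 0.256), and differed by -0.06 in Region 1; its second, dimmer probe set differed by 0.08 in Region 2. Its paralog *rfx1b*, the brightest RFX factor, differed by 0.22 in Region 2 and 0.09 in Region 1. *rfx2*, a factor required for LRO cilia in zebrafish, measured 7.34, 7.31 and 7.31 in transgenic and 7.36, 7.28 and 7.31 in control pieces of Region 2, a difference that rounds to 0.

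*rfx6*, best known for its role in the endocrine pancreas, was set apart on the arrays of Region 1, with 4.21, 4.12 and 4.20 in transgenic and 3.68, 3.88 and 3.64 in control pieces, a difference of 0.44 (adjusted p = 0.116). In Region 2 it was dim and overlapped, with 2.31, 2.41 and 2.49 in transgenic and 2.34, 2.55 and 2.62 in control pieces. *ift27* is a small GTPase of the IFT-B complex that links IFT to the BBS proteins. The groups overlapped in Region 2 and not in Region 1. *ift27* measured 5.15, 5.29 and 5.28 in transgenic and 5.17, 5.38 and 5.36 in control pieces of Region 2, and 6.0, 5.88 and 5.89 in transgenic and 5.43, 5.64 and 5.64 in control pieces of Region 1. Its difference in Region 1 was 0.36 (adjusted p = 0.172), and its second probe set differed by -0.02 there.

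For the difference of the transgenic effect between the regions, Region 2 minus Region 1, limma called 0 genes higher and 0 lower (0.0638% and 0.128% of all probe sets), and before adjustment, at p under 0.05, 1 gene was higher and 9 were lower (4.02% and 5.21% of all probe sets). The smallest p-values belonged to *rfx6* (-0.54, adjusted p = 0.177), *dnai2a* (-0.44, 0.268), *ift27* (-0.42, 0.281), *cfap144* (-0.43, 0.331) and *dnai1.1* (0.45, 0.406). *dnai2a* and *dnai1.1* encode intermediate chains of the outer dynein arm, and *dnai2a* was the dimmest gene of the set, with a mean signal of 1.91. The median of this difference over the set was -0.06, against 0.00 over all probe sets and -0.02 over named genes.

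The regions share no arrays, and their transgenic differences were set side by side. For the arrays, the methods do not say whether both regions of a replicate came from the same embryos, so the regions may not be independent. For the pieces used in quantitative PCR, they state that each embryo gave both regions. Of the 107 genes, 62 had the same sign in both regions, 47 of them positive and 15 negative, and Pearson's r over the genes was 0.25, a description over genes that are not independent. In both regions, 5 genes had all transgenic arrays above all control arrays (*rfx1b*, *rfx7b*, *dnaaf9*, *bbs9* and *cfap251*), and *rfx7a* and *ift46* had all of them below; none was set apart in opposite directions. The shares of all probe sets were 1.87% higher and 2.29% lower in both regions. *dnaaf9*, whose counterpart in Tetrahymena binds outer arm dyneins before they enter the cilium, measured 4.94, 4.84 and 5.05 in transgenic and 4.24, 4.69 and 4.56 in control pieces of Region 2. In Region 1 it measured 5.42, 5.22 and 5.41 in transgenic and 4.96, 5.04 and 4.75 in control pieces. The differences of *dnaaf9* were 0.45 and 0.43 in Region 2 and Region 1, each short of the threshold alone (adjusted p = 0.275 and 0.17).

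*ift46*, a subunit of the IFT-B complex required for cilia in zebrafish, had differences of similar size in both regions. It measured 6.77, 6.68 and 6.87 in transgenic and 7.06, 7.04 and 7.08 in control pieces of Region 2, a difference of -0.28 (adjusted p = 0.241). In Region 1 it measured 6.87, 6.80 and 6.92 in transgenic and 7.15, 7.14 and 7.09 in control pieces, a difference of -0.27 (adjusted p = 0.186). Of the 14 IFT genes, it was the only one whose arrays were set apart in both regions. *cfap251*, a protein at the base of the radial spokes in Tetrahymena, was the dimmest of the 7 genes, with 3.12, 3.35 and 3.25 in transgenic and 3.11, 2.89 and 2.99 in control pieces of Region 2 and 3.52, 3.61 and 3.60 in transgenic and 3.26, 3.24 and 3.41 in control pieces of Region 1.

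**Figure D2:**
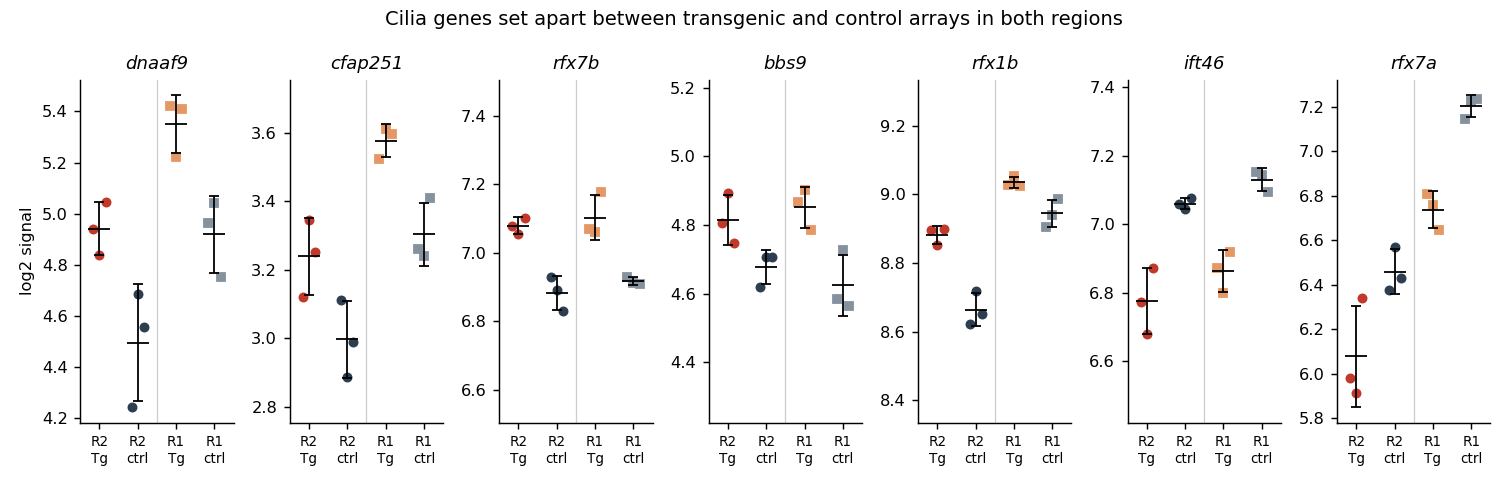
Log2 signal on each array (points) with mean and SD (n = 3) of the 7 genes whose transgenic and control arrays did not overlap in both regions, for Region 2 (R2, circles) and Region 1 (R1, squares), transgenic (Tg) left of control (ctrl). The vertical axes differ: 5 genes lie higher in transgenic pieces of both regions, and *ift46* and *rfx7a* lie lower.

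The mean of the transgenic differences of both regions was then tested over all 12 arrays, a test added after these values had been seen. The test took the 12 arrays as independent, although pieces of both regions may come from the same embryos. It called 3 genes higher (2.80%) and 2 lower (1.87%), against 1.34% and 1.98% of all probe sets. The share called lower was thus close to that of all probe sets, and the share called higher lay above it but rests on 3 genes. The share of named genes was not taken for this test. In each region alone, named genes were called more often than all probe sets, in Region 1 0.31% against 0.162% higher and 0.644% against 0.344% lower. Whether the set differs from named genes here is therefore not known. The genes were *ift46* (-0.28, standard error 0.05, adjusted p = 0.0078), *rfx7a* (-0.42, standard error 0.08, adjusted p = 0.0114), *dnaaf9* (0.44, standard error 0.09, adjusted p = 0.0186), *rfx7b* (0.19, standard error 0.04, adjusted p = 0.0297) and *cfap251* (0.26, standard error 0.06, adjusted p = 0.0409). When each of the 12 arrays was left out in turn, *ift46* and *rfx7a* passed in 12 of 12 fits, *dnaaf9* in 10, *cfap251* in 3 and *rfx7b* in 2. With the replicate number as a block, *ift46*, *rfx7a* and *dnaaf9* passed (adjusted p = 0.0187, 0.0308 and 0.0487), and *rfx7b* and *cfap251* did not (adjusted p = 0.0693 and 0.0817). In the same test *foxj1b* was lower by 1.47 and *foxj1a* higher, with a mean difference of 0.52 (adjusted p = 0.0039).

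More cilia genes were called between the regions than between transgenic and control pieces, and their direction depended on how the arrays were scaled, since arrays of Region 2 had a lower median. The fits between regions took the 12 arrays as independent, although both regions of a replicate may come from the same embryos. Between control pieces, 7 genes were higher in Region 2 (6.54%; 8.68% of all probe sets) and 33 were lower (30.8%; 19.0% of all probe sets, 26.0% of named genes) on the deposited scale. With each array centred on its median, which raised the differences by 0.18, the counts were 21 higher (19.6%; 24.9% of all probe sets) and 8 lower (7.48%; 9.29%). With quantile normalization over all arrays, which shifted the median of all probe sets by 0.06, they were 17 higher (15.9%; 12.1%) and 10 lower (9.35%; 12%). The median difference of the set was -0.15, 0.03 and 0.00 under the deposited, centred and quantile scales, against -0.06, 0.12 and 0.00 over all probe sets. Called under all 3 scales were 7 genes higher (6.54%) and 8 lower (7.48%), against 7.87% and 8.85% of all probe sets and 11.5% and 12.6% of named genes, so that neither share was above that of the whole array.

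**Figure D3:**
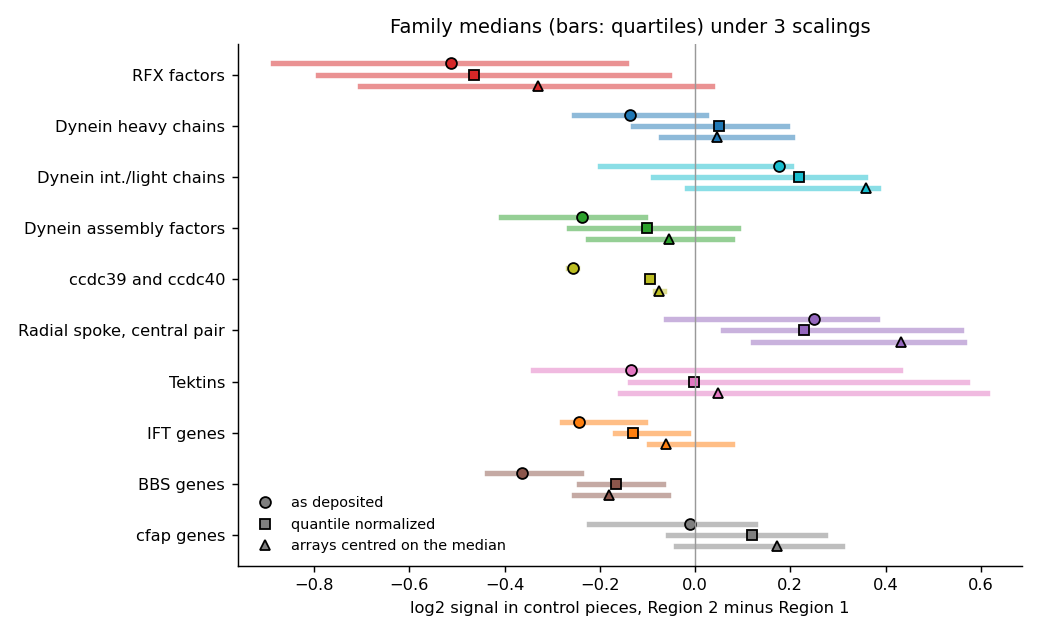
Median difference in log2 signal between control pieces, Region 2 minus Region 1, of each gene family (bars: quartiles) on the deposited scale (circles), after quantile normalization (squares) and after centring each array on its median (triangles). The medians of the radial spoke and central pair genes and of the dynein intermediate and light chains lie above 0 under all 3 scales, those of the RFX, assembly factor, IFT and BBS genes and of *ccdc39* and *ccdc40* below 0, and those of the dynein heavy chains, the tektins and the cfap genes change sign.

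The 7 genes higher in Region 2 of control embryos under all 3 scales were 2 of the 7 radial spoke and central pair genes, 2 of the 5 tektins, 2 of the 34 cfap genes and 1 of the 10 dynein intermediate and light chains. *spag6*, a protein of the central pair, measured 4.27, 4.30 and 4.39 in Region 2 and 3.72, 3.33 and 3.46 in Region 1 of control embryos, a difference of 0.82 or 1.76-fold (standard error 0.14, adjusted p = 0.0012). *tekt2*, a tektin of the doublet microtubules, measured 3.58, 3.33 and 3.53 in Region 2 and 2.73, 2.88 and 2.86 in Region 1, a difference of 0.66 or 1.58-fold (adjusted p = 0.0012). *cfap161*, a protein inside the doublets, measured 3.57, 3.44 and 3.61 in Region 2 and 2.97, 3.03 and 3.09 in Region 1, a difference of 0.51 (adjusted p = 0.0061). No array of Region 2 overlapped with an array of Region 1 for these 3 genes. The other 4 were *rsph4a*, a protein of the spoke head (0.47), *tekt1* (0.43), *cfap263* (0.43) and *dnai7*, an axonemal dynein gene (0.33). All 7 had a mean signal under 4. Other members of these families lay the other way. *dnai1.1*, of the dynein intermediate and light chains, was lower in Region 2 under all 3 scales, by -0.51 (deposited), -0.32 (centred) and -0.40 (quantile). On the deposited scale *dnai3*, *dnal4b* and *tekt4* were lower (-0.28, -0.29 and -0.34). So were 5 cfap genes, among them *cfap52* and *cfap221* (-0.44 and -0.37). *rsph1* and *tekt3* had differences of -0.43 and -0.40 that did not pass. After centring, of these named genes only *dnai1.1* passed, and all stayed below 0. The second probe sets of *tekt2* and *cfap263* did not show the difference (0.03 and -0.20), and that of *dnai7* did not pass (0.14, adjusted p = 0.13). The call of *rsph4a* was lost without 1 control array of Region 1, replicate 2 (0.38, adjusted p = 0.0584).

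Of the 8 RFX factors, 4 were lower in Region 2 under all 3 scales and 0 were higher, where 8.85% of all probe sets and 12.6% of named genes were lower; the members were chosen with results known, and no test of the family was made. *rfx4*, expressed in the neural tube, measured 7.55, 7.54 and 7.56 in Region 2 and 8.97, 9.03 and 9.06 in Region 1 of control embryos, a difference of -1.47 or 2.77-fold (standard error 0.06, adjusted p = 2.42e-08). *rfx6* measured 2.34, 2.55 and 2.62 in Region 2 and 3.68, 3.88 and 3.64 in Region 1, a difference of -1.23 or 2.35-fold (adjusted p = 3.69e-06). On the probe sets used, these 2 factors held the widest differences of the whole set, and the only ones past a fold of 2. The second, dimmer probe set of *cfap74* differed by -1.27 (adjusted p = 8.19e-05), against -0.26 for the one used. *rfx3*, a regulator of cilia genes in mouse and zebrafish, measured 5.85, 5.89 and 5.94 in Region 2 and 6.49, 6.84 and 6.66 in Region 1, a difference of -0.77 (adjusted p = 0.000231). *rfx7a* differed by -0.74 (adjusted p = 0.000483). *rfx2* did not pass, with -0.07, and *rfx7b* and *rfx1a* had differences of -0.03 and -0.17, although the second probe set of *rfx1a* differed by -0.59 (adjusted p = 0.0026). *rfx1b*, at -0.28, was called on the deposited scale but not after centring.

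Neural plate and somite markers lay the same way as the RFX factors. Of 8 neural plate markers, 7 were lower and 1 higher (*sox2*) in Region 2 of control embryos, with a median signal of 5.27 in Region 2 and 6.90 in Region 1, and all 8 somite markers were lower, with a median signal of 6.66 in Region 2 and 7.84 in Region 1. *foxj1b* was also lower in Region 2 of control embryos, by 0.52 (adjusted p = 0.0013). The part of these tissues in the RFX differences was not tested.

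Of the other genes lower in Region 2 under all 3 scales, *dnaaf2* and *dnaaf4* assemble dynein arms, *dnai1.1* is an outer arm intermediate chain, and *bbs12* is a chaperonin-like protein needed to assemble the BBS complex. *dnaaf2* measured 4.27, 4.23 and 3.95 in Region 2 and 4.94, 4.80 and 5.04 in Region 1 of control embryos, a difference of -0.78 or 1.71-fold (adjusted p = 0.000975). *dnaaf4*, *dnai1.1* and *bbs12* differed by -0.44, -0.51 and -0.48. On the deposited scale 7 of 14 IFT genes and 6 of 8 BBS genes were lower as well. The shares of the whole array lower on that scale were 19.0% of all probe sets and 26.0% of named genes. None of the IFT genes was called under the other 2 scales, and of the BBS genes 1 was higher and 1 lower under each. *bbs2*, a subunit of the BBS complex, had a difference of -0.48 (adjusted p = 0.0121) on the deposited scale and of -0.30 (adjusted p = 0.0828) after centring. No dynein heavy chain was called under all 3 scales.

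**Figure D4:**
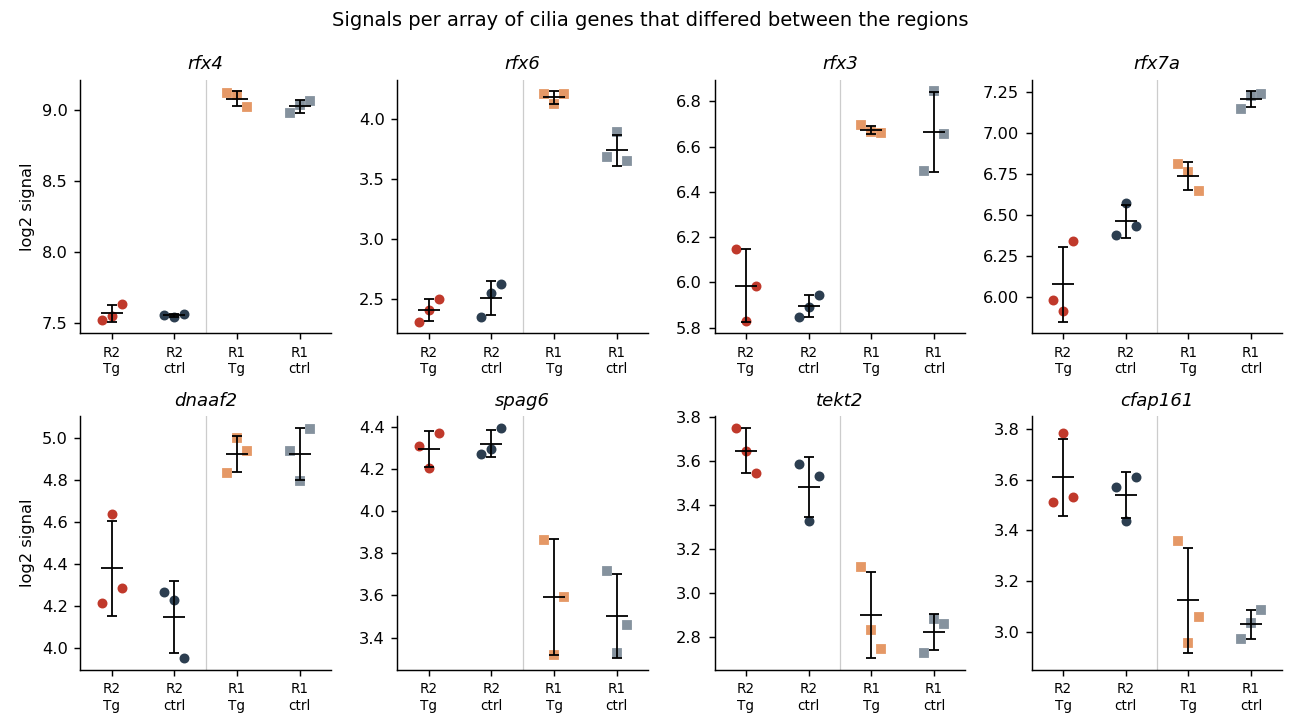
Log2 signal on each array (points) with mean and SD (n = 3) of 8 genes called between the regions in control pieces under all 3 scales, for Region 2 (R2, circles) left of Region 1 (R1, squares) and transgenic (Tg) left of control (ctrl). The 4 RFX factors and *dnaaf2* lie lower in Region 2 and *spag6*, *tekt2* and *cfap161* higher; the vertical axes differ.

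The regions were compared in the same way in transgenic pieces, which share no arrays with control pieces. There 6 genes were higher in Region 2 (5.61%; 7.77% of all probe sets) and 40 lower (37.4%; 18.8% of all probe sets, 27.7% of named genes) on the deposited scale. With each array centred on its median the counts were 10 and 15 (21.7% and 9.66% of all probe sets), and after quantile normalization 7 and 15 (11.8% each). Of the genes called in either kind of pieces, 33 were called the same way in both, which is 71.7% of the 46 in transgenic and 82.5% of the 40 in control pieces, and 0 were called in opposite ways. Pearson's r over the 107 genes was 0.85, and 0.79 without the RFX factors, with the scaling of the regions shared by both axes. Neither this r nor the shares called in both kinds of pieces were taken over all probe sets or named genes. Whether the cilia genes differ from the whole array in this agreement is therefore not known. Under all 3 scales, 6 genes were higher (5.61%) and 13 lower (12.1%) in transgenic pieces, against 7.34% and 9.2% of all probe sets and 9.91% and 14.0% of named genes. Called in both kinds of pieces under all 3 scales were *spag6*, *tekt2*, *cfap161*, *rsph4a* and *dnai7*, higher in Region 2, and *rfx4*, *rfx6*, *rfx3*, *rfx7a* and *dnaaf4*, lower in Region 2. In transgenic pieces the second probe sets of *tekt2* and *dnai7* did not pass (0.07 and -0.12, adjusted p = 0.559 and 0.2). *rfx6* had the widest difference in transgenic pieces, with 2.31, 2.41 and 2.49 in Region 2 and 4.21, 4.12 and 4.20 in Region 1, or -1.77 (adjusted p = 1.91e-07).

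**Figure D5:**
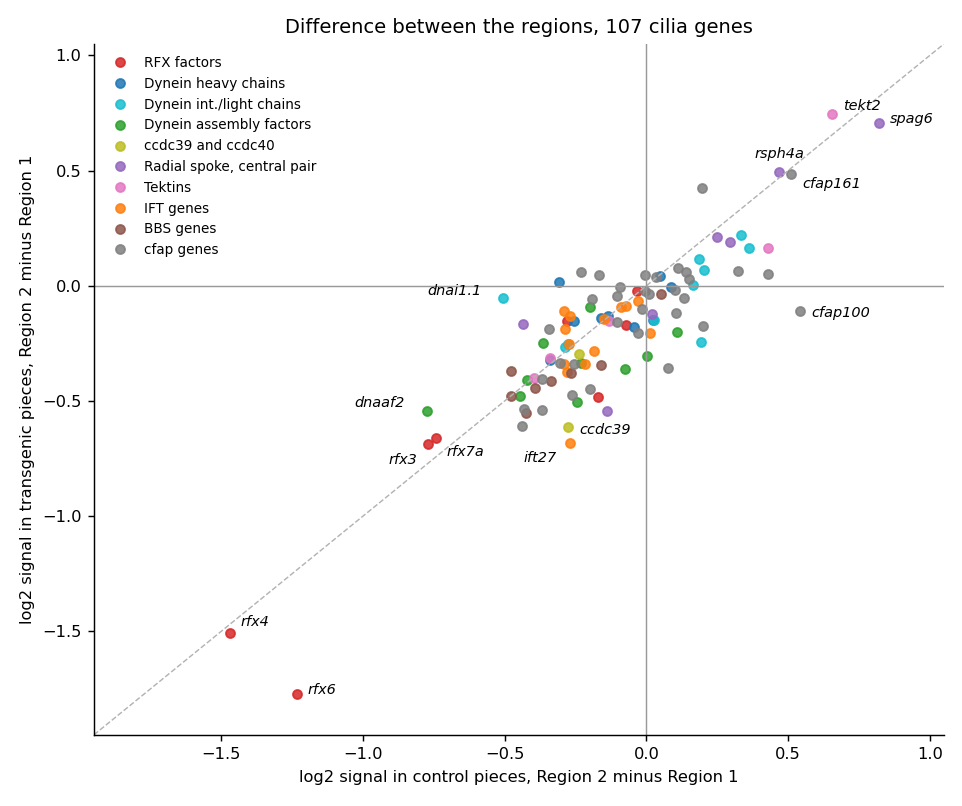
Difference in log2 signal between the regions, Region 2 minus Region 1, in control pieces (horizontal) and transgenic pieces (vertical) for the 107 cilia genes, coloured by family; the dashed line marks equal differences. *rfx4* and *rfx6* lie far below 0 on both axes, *spag6*, *tekt2*, *cfap161* and *rsph4a* above 0, and most other genes between -0.6 and 0.5.

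Cilia genes that the symbol rule leaves out were followed in the same comparisons. Of 90 such genes in 4 lists, 66 were measured and not yet in the set. In transgenic against control pieces of Region 2, 0 were higher and 2 lower (*foxj1b* and *hnf1bb*, 3.03%). The shares there were 0.0678% and 0.4% of all probe sets, and 0.14% and 0.871% of named genes. In Region 1, 0 were higher and 1 lower (*foxj1b*, 1.52%), against 0.162% and 0.344% of all probe sets and 0.31% and 0.644% of named genes. The lists were drawn up with earlier results known, and the authors had reported *foxj1b* from these arrays. The shares called lower are therefore no test of the lists. Before adjustment, at p under 0.05, the counts were 3 and 2 in Region 2 (4.55% and 3.03%, against 4.56% and 6.2% of all probe sets). They were 14 and 2 in Region 1 (21.2% and 3.03%, against 6.28% and 6.23%). The median differences were 0.01 in Region 2 and 0.06 in Region 1. The test of the mean over both regions called 2 higher (3.03%), *foxj1a* and *pih1d2* (0.36, adjusted p = 0.0391), and 3 lower (4.55%), *foxj1b*, *noto* (-0.48, adjusted p = 0.0065) and *hnf1bb* (-0.27, adjusted p = 0.0114). The mean of *hnf1bb* joins opposite differences, -0.87 in Region 2 and 0.32 in Region 1, so *hnf1bb* was not lower in both regions. The shares of all probe sets in that test were 1.34% higher and 1.98% lower. Between the regions in control pieces, 6 were higher in Region 2 (9.09%) and 8 lower (12.1%) under all 3 scales, against 7.87% and 8.85% of all probe sets and 11.5% and 12.6% of named genes. Of the 25 axoneme, docking and assembly genes, 4 were higher and 2 lower: *spag17*, a central pair protein, differed by 0.54, *capsla* by 0.81, *enkur* by 0.60 and *drc1*, of the dynein regulatory complex, by 0.22, while *spag16*, another central pair protein, differed by -0.97 and *stk36*, a kinase, by -0.43. Of the 15 IFT components and motors without an ift symbol, 0 were higher and 3 lower: *wdr19*, of the IFT-A complex (-0.83), *cluap1*, of the IFT-B complex (-0.52), and *dync2h1*, the heavy chain of the motor that returns IFT trains (-0.41). Of the 16 genes of the transition zone and the small GTPases, 1 was lower, *cep290* (-0.46). Of the 10 regulators, *noto* and *hnf1bb* were higher in Region 2 and *foxj1b* and *myb* lower.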

How the data were processed

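The authors hybridised RNA of the 12 pools to Affymetrix Zebrafish Gene 1.1 ST arrays and made the deposited log2 signals with Affymetrix Expression Console; summarization and normalization are not given in the sources used here, and array medians differ between the regions. Values were used as deposited. Symbols came from the platform annotation, updated by gene identifier; 4 probe sets with a cilia symbol beside another were left out. limma 3.58.1 in R 4.3.3 (lmFit, eBayes; Python 3.11.15 for tables and plots) compared transgenic with control pieces within each region (6 arrays) and the regions over all 12 arrays; Benjamini-Hochberg adjustment ran over all 75212 probe sets, two-sided, called at adjusted p under 0.05. The fit was tested on simulated data with independent noise and changes wider than any transgenic difference of the set. The simulation therefore does not show how the fit handles differences as small as those of the set. An exact permutation test of 3 arrays against 3 gives no p under 0.1. Alternatives were other tests, scalings, filters and left-out arrays. Members and lists were chosen with earlier results of these data known. Named by rule were the 5 genes with the smallest p of each transgenic comparison, up to 8 called genes in each direction between control regions, the brightest of each family, the dimmest and, per other list, called genes and the widest region differences. The others (*rfx7b*, *dnah1*, *dnah2*, *dnah6*, *dnah9*, *dnai3*, *bbs9*, *cfap251*, *cfap74*, *dnaaf3l*, *dnaaf6*, *dnaaf19*, *rfx2*, *dnaaf4*, *dync2h1*, *spag17*, *drc1*, *rsph1*, *tekt3*, *cfap52*, *cfap221*, *pih1d2* and tissue markers) were chosen after their values were seen.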

Additional observations from a re-analysis of the deposited data

Results flagged for a closer look

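*hnf1bb*, a transcription factor of the pronephros and hindbrain that was listed here among regulators of cilia, differed in opposite directions in the regions. In Region 2 it measured 6.82, 6.97 and 6.85 in transgenic and 7.79, 7.78 and 7.69 in control pieces, a log2 difference of -0.87 (limma adjusted p = 0.0144). In Region 1 it measured 7.78, 7.86 and 7.74 in transgenic and 7.38, 7.49 and 7.54 in control pieces, a difference of 0.32 (adjusted p = 0.156). The difference of the effects, Region 2 minus Region 1, was -1.20 (-1.1981, adjusted p = 0.000825). All 3 transgenic arrays lay below all control arrays in Region 2 and above them in Region 1. No gene of the symbol set met this criterion.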

How the results depend on the processing

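The deposited scale leaves the level of Region 2 against Region 1 unsettled, 3 arrays a group limit the precision, and 54 of the 107 genes were dim.
In Region 1, 1 gene was higher with all 12 arrays in 1 fit or with only probe sets of 1 symbol (*rfx6*, adjusted p = 0.0436 and 0.0317), and 1 lower with a variance trend and robust spread, with only brighter probe sets (74 genes) or with only probe sets of 1 symbol (*rfx7a*, adjusted p = 0.0197, 0.0289 and 0.0135). The mean over both regions, added after seeing the data, called 3 higher and 2 lower where each region alone called 0 and 0; leaving out 1 array it called 0 to 3 higher and 2 to 3 lower, and with the replicate block 1 higher and 2 lower. Between control regions, Region 2 minus Region 1, the 7 higher and 33 lower genes became 21 and 8 when centred, 17 and 10 after quantile normalization, and 0 and 2 with a fold of 2; 3 were higher among brighter probe sets and 11 with probe sets of 1 symbol. Between transgenic regions, the 6 higher and 40 lower became 10 and 15 when centred, 15 lower after quantile normalization, and 0 and 2 with a fold of 2; 3 were higher among brighter probe sets. The cause of changes other than scale and number of genes tested was not tested. Apart from the rescaled region comparisons, shares over all probe sets were not taken under the alternatives of this section, left-out arrays and the replicate block included. Whether these changes in counts are particular to the cilia genes is therefore not known.
Leaving out 1 array kept 0 calls in both transgenic comparisons and in their difference, and gave 6 to 9 higher and 23 to 35 lower between control regions and 4 to 6 and 30 to 40 between transgenic regions. *foxj1a* in Region 1 passed with a variance trend, all 12 arrays, brighter probe sets or probe sets of 1 symbol (adjusted p = 0.0235, 0.0193, 0.0303 and 0.012). Of 252 values of named genes under the other alternatives, 238 kept direction and side of the threshold, 5 lost and 9 gained the call, and 0 reversed; with arrays left out, 323 of 324 kept both.
Arrays with the same replicate number had deviations from their group means that correlated at -0.055 to 0.0787. Between the regions of the same kind of embryo, the correlations were all positive: 0.0656, 0.0537 and 0.017 in transgenic and 0.0787, 0.0272 and 0.0375 in control pieces. These values were small, and the number was not taken as a pairing, but shared embryos between the regions of a replicate were not tested. With the replicate block, 0 genes were called in the transgenic comparisons and 7 higher and 33 lower between control regions and 5 and 38 between transgenic regions, and *foxj1b* did not pass (adjusted p = 0.0701 in Region 2 and 0.0999 in Region 1).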
